A study of Mus musculus with 6 samples.

Results

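Heterotrimeric G proteins are built from an α subunit, which binds guanine nucleotide, and a dimer of a β and a γ subunit that stays together as a working unit. A receptor that activates the trimer separates Gα from Gβγ, and the freed Gβγ acts on its own targets, among them phospholipase C β enzymes, phosphoinositide 3-kinases and ion channels. Gγ carries a lipid at its C-terminal end that holds the dimer at the membrane, and Gβγ is in turn needed to place Gα there. Fibroblasts use these proteins to respond to lysophospholipids, thrombin and other ligands of G protein-coupled receptors.

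The genes described here are 10 members of the Gβ and Gγ families, namely the 4 Gβ genes Gnb1, Gnb2, Gnb4 and Gnb5 and the 6 Gγ genes Gng2, Gng5, Gng7, Gng10, Gng11 and Gng12. They were found by their Ensembl identifiers among the 56953 genes of the table, and all 10 were present. The RNA came from cultured fibroblasts of mouse embryos (MEFs), a connective tissue cell, in 6 libraries of which 3 carry the label WT and 3 the label GαqKO. The paper's methods describe the knockout line as Gαq/11-deficient and give both lines as received from the same laboratory. Both were grown in the same serum-containing medium with no further treatment, and genotype is the difference that the labels name. The labels number the libraries of each genotype 1 to 3, and the paper's methods call them biological replicates. Neither says whether these came from separate embryos or cultures. It is also not stated whether either line is a single clone, so p-values measure the spread between these libraries. In bulk RNA, fewer cells that express a gene and less of its RNA per cell cannot be told apart.

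The values are normalized counts, that is, reads counted per gene and divided by a size factor for each library. They summed to between 11392429 and 11483486 per library, and in the 5 libraries whose reads could be recovered the totals ran from 9853000 to 12229175 reads. Of the targeted genes, Gna11 (Gα11) fell from 2148 ± 29.0 to 451.6 ± 28.7 normalized counts (SD, n = 3 each), whereas Gnaq (Gαq) had 1691 ± 48.5 in WT and 1926 ± 36.0 in GαqKO, so directions below are those of the libraries as labelled. A gene-level value does not show whether the Gnaq transcript is intact. All 11 fibroblast markers examined had a mean over 10 normalized counts, and 7 of them, among them Col1a1, Fn1 and Vim, were lower and 4 higher in GαqKO (limma). Of all genes tested, 34.1% were lower and 31.8% higher. The fibroblast list summed to 108238 to 114948 normalized counts in WT and 77217 to 80795 in GαqKO. Among the 4 higher ones, Thy1 was at 2.1, 0 and 0 and Pdgfra at 17.5 to 21.9 normalized counts in WT, against 59.0 to 76.5 and 2274 to 2356 in GαqKO. Among 6 epithelial markers, Krt14 and Cdh1 were the ones with a mean over 10 normalized counts, at 235.1 to 261.0 in WT and 0 to 10.4 in GαqKO, and the list summed to 494.5 to 513.7 in WT. The neural list summed to 408.2 to 472.0 and 74.5 to 107.5, mostly Tubb3. Endothelial, leukocyte and muscle lists stayed at or under 116.6 normalized counts in each library. The part of these differences in the results below was not tested.

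The most abundant listed Gβ transcript, Gnb1, was lower in GαqKO MEFs, and so was Gng10, which led the Gγ transcripts of WT per kilobase of exon. Gnb4, Gng12 and Gng7 were higher. Gnb5, Gng2 and Gng5 did not pass the test, and Gnb2 and Gng11 were too low to enter the main fit. Of the 8 members that entered the fit (those reaching 10 normalized counts in 3 or more libraries), 5 had an adjusted p under 0.05 in limma, 3 of them higher and 2 lower in GαqKO. Across all 14096 genes tested, 65.8% passed the same threshold in either direction, 31.8% higher and 34.1% lower, so the number of members that moved is close to that of genes at large. The 3 values of each group did not overlap in 5 of the 8 tested members, against 69.6% of all genes tested. The median log2 fold change of the 8 was 0.27, beside -0.01 over all genes tested.

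**Figure D1:**
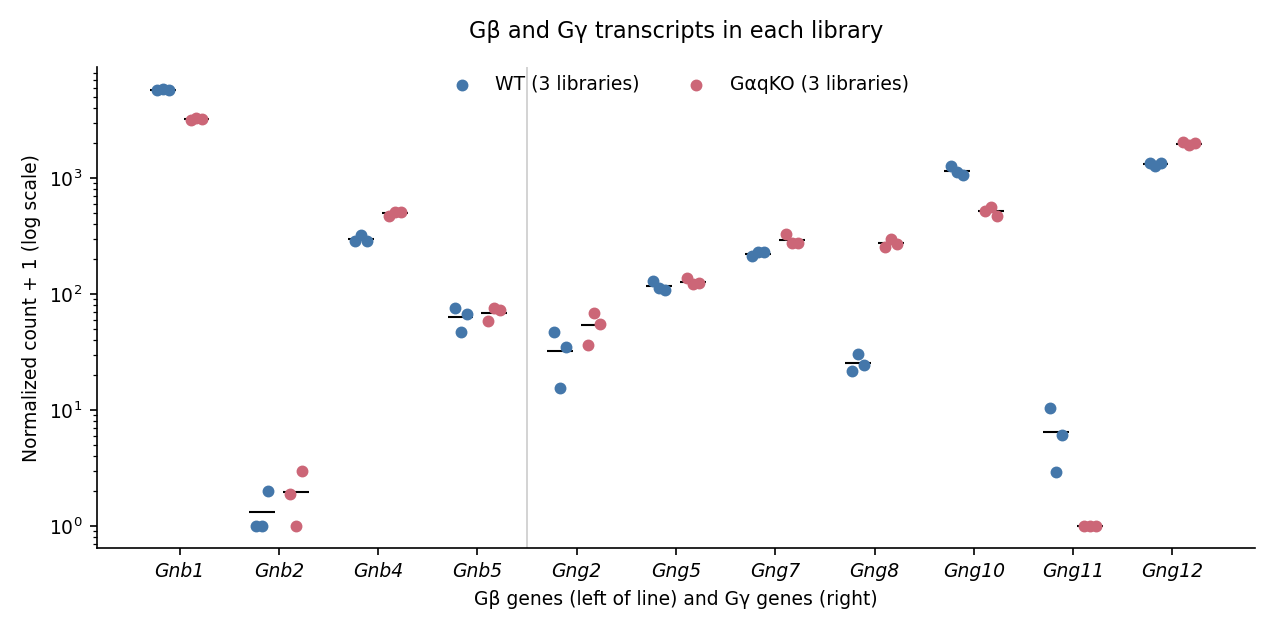
Normalized count plus 1 (log scale) of each Gβ and Gγ member, and of Gng8, in the 3 WT and 3 GαqKO libraries; each point is a library and each line a group mean. Gnb1 and Gng10 lie lower in every GαqKO library, Gnb4, Gng7, Gng8 and Gng12 lie higher, and Gnb2 lies at 0 to 2.0 normalized counts throughout.

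The leading Gγ pair is shown here by sequence, because Gng10 and Gng12 together made up most of the Gγ transcripts and moved in opposite directions. The lines give the 250 bases before the start of the canonical transcript, read 5′ to 3′ along the gene's strand (GRCm39, GENCODE release M39). The window of Gng10 is chr4:59034838-59035087 and that of Gng12 is chr6:66873128-66873377, both on the plus strand. Capitals mark matches to any of 8 motifs searched on both strands.
Gng10: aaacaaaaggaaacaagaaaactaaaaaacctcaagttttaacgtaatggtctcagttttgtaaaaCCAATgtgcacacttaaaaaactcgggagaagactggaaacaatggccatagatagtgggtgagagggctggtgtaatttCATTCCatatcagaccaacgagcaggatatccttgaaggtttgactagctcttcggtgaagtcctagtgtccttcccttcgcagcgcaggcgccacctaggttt
Gng12: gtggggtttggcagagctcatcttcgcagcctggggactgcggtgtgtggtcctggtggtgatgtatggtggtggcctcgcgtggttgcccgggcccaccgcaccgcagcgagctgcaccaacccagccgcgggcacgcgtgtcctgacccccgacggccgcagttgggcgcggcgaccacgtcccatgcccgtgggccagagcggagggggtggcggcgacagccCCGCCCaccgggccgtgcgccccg

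The window before Gng12 is 74.0% G and C with 28 CpG dinucleotides, and that before Gng10 is 43.2% G and C with 7, beside a median of 53.2% over the same window of 21651 protein-coding genes. The Gng10 window holds a match to the CCAAT box (CCAAT, present in 36.5% of those windows) and to the TEAD site (GGAATG, 12.1%), and the Gng12 window holds a match to the GC box (GGGCGG, 36.4%). Neither holds the TATA box (TATAAA, 11.9%), CRE (TGACGTCA, 1.7%), AP-1 site (TGANTCA, 6.2%), E-box (CACGTG, 6.3%) or ETS core (CCGGAAG, 6.9%). No motif matched overlaps another in these windows. These are matches of letters in a short window and were not tested for binding.

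Gnb1 (ENSMUSG00000029064.16; chromosome 4 of GRCm39, 155566095 to 155644327, plus strand) encodes Gβ1, the most widely used β subunit. Its normalized counts were 5789, 5825 and 5709 in WT replicates 1, 2 and 3 and 3141, 3309 and 3236 in the GαqKO replicates. Every GαqKO library lay far below every WT library, and the replicates of a group differed little. The log2 fold change was -0.84 (standard error, SE, 0.040, 95% interval -0.92 to -0.75, limma adjusted p = 3.94e-10), and the WT mean was 1.79 times that of GαqKO. None of its exon bases lies inside another gene, and its pseudogenes Gnb1-ps2 and Gnb1-ps3 had at most 2.0 normalized counts in any library.

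Gnb4 (ENSMUSG00000027669.15; chromosome 3, 32632743 to 32671909, minus strand) encodes Gβ4, which is close in sequence to Gβ1 and Gβ2. It had 285.1, 323.5 and 286.0 normalized counts in WT and 467.6, 506.4 and 508.6 in GαqKO. The groups did not overlap, with a log2 fold change of 0.73 (SE 0.080, 95% interval 0.56 to 0.90, limma adjusted p = 2.28e-06). Of its exon bases, 46.3% lie inside genes on the opposite strand, mainly Mfn1, a mitochondrial fusion GTPase that went from 573.7 ± 11.9 to 1040 ± 89.8 normalized counts (SD, n = 3 each). The strand setting of the counting is not given in the sources used here, so reads of the shared stretch cannot be assigned to either gene with certainty.

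Gnb5 (ENSMUSG00000032192.10; chromosome 9, 75213524 to 75253203, plus strand) encodes Gβ5, the divergent β subunit that pairs with RGS proteins of the R7 group in place of a Gγ. It had 75.2, 45.7 and 66.2 normalized counts in WT and 57.3, 75.2 and 71.5 in GαqKO. Of its exon bases, 55.6% lie inside genes on the opposite strand, so its level is uncertain. The groups overlapped, and the difference of 0.14 on the log2 scale had a 95% interval of -0.31 to 0.60 (limma adjusted p = 0.568). Without WT replicate 2, the lowest value, the difference was -0.06. Its R7 partners were scarce too, since 2 of the 6 genes listed for Gβ5 (R7 RGS proteins and their anchors) passed the filter. Of these, Rgs9 is known for ending G protein signals in photoreceptors and striatum. It went from 13.6, 14.6 and 15.3 to 5.6, 4.6 and 1.0 normalized counts, a log2 fold change of -1.87 (limma adjusted p = 0.0043). Rgs9 passed the filter through its WT values alone. The other, Rgs9bp, had a log2 fold change of -0.28 (limma adjusted p = 0.254).

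Gnb2 (ENSMUSG00000029713.16; chromosome 5, 137525542 to 137551860, minus strand), whose product Gβ2 is found in most tissues, was listed at 0, 0 and 1.0 normalized counts in WT and 0.9, 0 and 2.0 in GαqKO. In WT replicate 1, 3 reads, the most that a count of 0 allows, are worth 3.13 normalized counts, which covers counting error only. However, 98.7% of its exon bases lie inside the spans of neighbouring genes, 96.6% inside genes of the same strand. Gigyf1, a neighbour whose span is among them, was listed at 0 in all 6 libraries. Over the table, 1149 of 1607 protein-coding genes with all exon bases inside the spans of other genes were listed at 0 in every library (71.5%), against 2901 of 11516 with none inside (25.2%). The share was 72.2% where the surrounding genes were only on the same strand and also 72.2% where they were only on the opposite strand. The value of Gnb2 is therefore given as listed and says nothing of how much Gβ2 transcript the cells held.

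**Figure D2:**
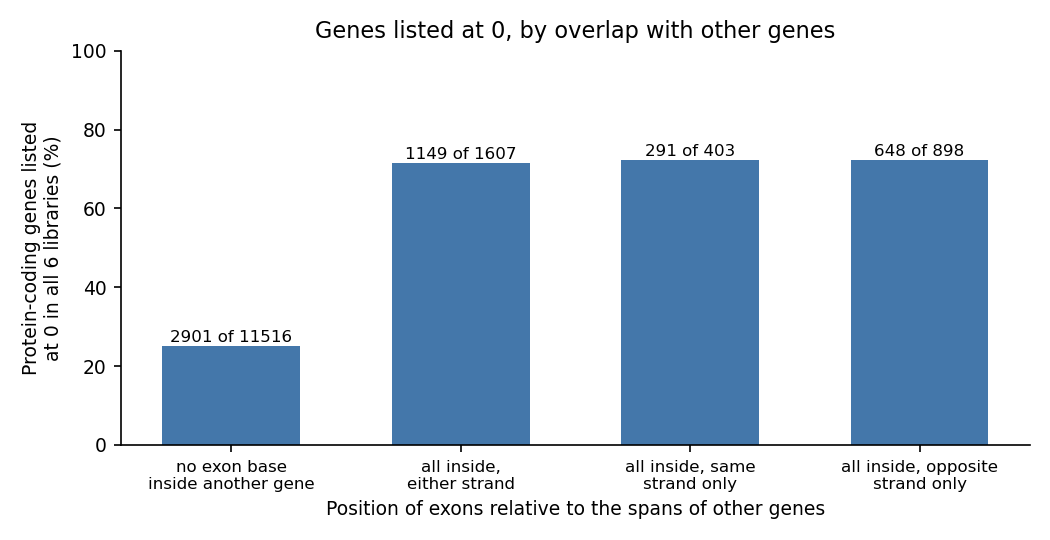
Percentage of protein-coding genes listed at 0 in all 6 libraries, by whether their exons lie inside the spans of other genes; the numbers over the bars are genes listed at 0 of genes in the class. The share is 25.2% with no overlap and between 71.5% and 72.2% in the 3 classes with full overlap, the class of Gng5; Gnb2 is 98.7% covered.

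Gng10 (ENSMUSG00000038607.13; chromosome 4, 59035088 to 59041903, plus strand) was the member with the largest tested change in size. It had 1256, 1134 and 1057 normalized counts in WT and 517.4, 559.6 and 467.3 in GαqKO, with a wide gap between the groups. The log2 fold change was -1.16 (SE 0.078, 95% interval -1.32 to -0.99, limma adjusted p = 1.55e-08), and the WT mean was 2.23 times that of GαqKO. It was the 1 member that changed by more than 1 on the log2 scale, where 20.7% of all genes tested also lay (10.2% higher and 10.5% lower). The adjacent upstream gene Dnajc25, a membrane-bound DnaJ family protein, had 513.7, 590.6 and 592.4 normalized counts in WT and 521.2, 513.4 and 538.8 in GαqKO (log2 fold change -0.11, limma adjusted p = 0.206).

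Gng12 (ENSMUSG00000036402.14; chromosome 6, 66873378 to 66998352, plus strand), a broadly expressed γ subunit, went the other way. It had 1342, 1278 and 1345 normalized counts in WT and 2035, 1928 and 1987 in GαqKO, a log2 fold change of 0.59 (SE 0.046, 95% interval 0.48 to 0.69, limma adjusted p = 8.87e-08). The lowest GαqKO value was well above the highest WT value. Only 2.1% of its exon bases lie inside another gene.

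Gng7 (ENSMUSG00000048240.16; chromosome 10, 80784447 to 80850779, minus strand), known from the striatum for its part in coupling receptors to adenylyl cyclase, rose less. Its values were 210.9, 227.3 and 228.0 normalized counts in WT and 329.6, 275.2 and 273.9 in GαqKO. The groups were separate but GαqKO replicate 1 stood above the other two, and the log2 fold change was 0.39 (SE 0.099, 95% interval 0.18 to 0.61, limma adjusted p = 0.00315).

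Gng2 (ENSMUSG00000043004.14; chromosome 14, 19922623 to 20027870, minus strand), the γ subunit most used in biochemical work on Gβγ, was low and variable. It had 45.9, 14.6 and 33.6 normalized counts in WT and 35.7, 68.2 and 54.4 in GαqKO. The groups overlapped, and the difference of 0.83 on the log2 scale had a 95% interval of 0.04 to 1.61 (unadjusted p = 0.041, limma adjusted p = 0.061). Single libraries decided the call, since the adjusted p was 0.0179 without WT replicate 1 (log2 fold change 1.16) and 0.0361 without GαqKO replicate 1 (1.08) in limma.

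Gng5 (ENSMUSG00000068523.13; chromosome 3, 146205461 to 146213356, plus strand) had 129.5, 111.7 and 106.9 normalized counts in WT and 136.2, 120.2 and 123.9 in GαqKO. These overlapped, with a difference of 0.13 on the log2 scale (95% interval -0.16 to 0.42, limma adjusted p = 0.41). All of its exon bases lie inside the opposite-strand genes Rpf1 and Spata1, and a pseudogene, Gng5-ps, had 80.3 ± 7.1 and 84.6 ± 15.8 normalized counts (SD, n = 3 each). Reads of Gng5 can be shared with either, so its level is uncertain.

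Gng11 (ENSMUSG00000032766.10; chromosome 6, 4003904 to 4008448, plus strand), a γ subunit that carries the shorter farnesyl lipid, was under the filter. It was listed at 9.4, 1.9 and 5.1 normalized counts in WT and at 0 in every GαqKO library. These WT values stand for 9, 2 and 5 recovered reads, and in GαqKO replicates 1 and 2 a count of 0 allows up to 2.82 and 3.47 normalized counts, so the size of a difference could not be measured at this depth. With no filter on low values, Gng11 was lower in GαqKO with a limma adjusted p = 0.0019 over 26091 genes, and no fold is given because its GαqKO values are all 0. That p rests on values near the floor, where the added count of 1 weighs heavily. The 1.9 of WT replicate 2 lies under both of the limits given for GαqKO. No exon base of Gng11 lies inside another gene.

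Because Gβ and Gγ act as pairs, the make-up of each family was computed per library as a share of its members' summed normalized counts per kilobase of exon. Gnb1 made up 94.9% ± 0.41 of the Gβ sum in WT and 88.2% ± 0.61 in GαqKO (SD, n = 3 each). The shares of Gnb4 and Gnb5 were 2.66% ± 0.19 and 2.45% ± 0.59 in WT, and 7.33% ± 0.15 and 4.43% ± 0.48 in GαqKO. These shares leave Gβ2 all but uncounted, for the reason given above. Gnb4 and Gnb5 have 46.3% and 55.6% of their exon bases inside opposite-strand genes, which makes their shares uncertain too. The shares describe the listed values and not the pool of Gβ in the cells. The summed level of the Gβ members went from 699.0 ± 6.2 to 420.5 ± 13.5 normalized counts per kilobase (SD, n = 3 each). That of the Gγ members went from 612.2 ± 36.7 to 546.8 ± 14.6 (SD, n = 3 each), and no test was made on sums or shares. Gng8, a Gγ gene outside the members, is in neither the sum nor the shares. It had 6.48 ± 1.1 normalized counts per kilobase in WT and 72.0 ± 6.1 in GαqKO (SD, n = 3 each). The lower sum of the members therefore cannot be read as less Gγ transcript in total.

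Among the Gγ members, Gng10 held 54.2% ± 2.0 of the sum in WT and 27.2% ± 2.0 in GαqKO, and Gng12 held 35.9% ± 2.0 and 60.3% ± 1.9 (SD, n = 3 each). On this scale Gng10 was above Gng12 in each WT library and below it in each GαqKO library, but the order in WT depends on the length used. Without length scaling Gng12 led in both groups, with 46.5% against 40.3% in WT and 66.8% against 17.3% in GαqKO. With the length of the canonical transcript in place of all exons, Gng10 led in WT and Gng12 in GαqKO on average, with 66.6% ± 1.8 and 21.7% ± 1.4 in WT and 38.9% ± 2.5 and 42.5% ± 1.9 in GαqKO for Gng10 and Gng12 (SD, n = 3 each). The remaining shares were small, led by Gng7 with 4.32% ± 0.43 in WT and 6.34% ± 0.56 in GαqKO and followed by Gng5 with 3.87% ± 0.17 and 4.73% ± 0.25 (SD, n = 3 each).

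**Figure D3:**
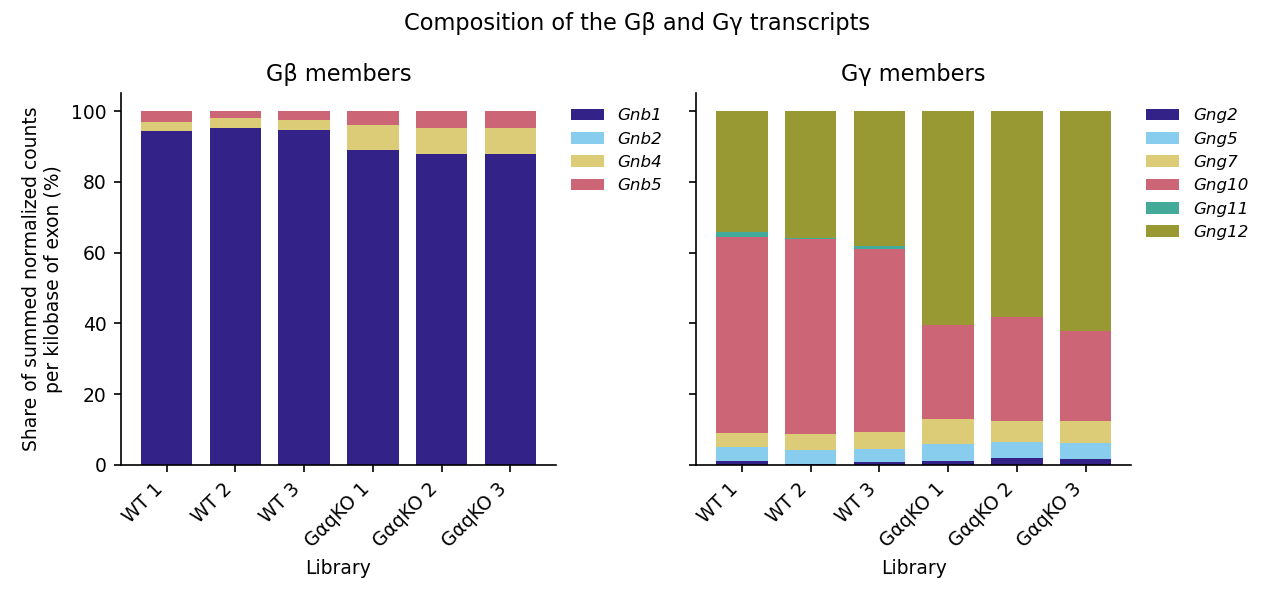
Share of each member in its family's summed normalized counts per kilobase of exon, for each of the 6 libraries. Colours are genes, and each bar adds up the members of a family, without Gng8. Gnb1 fills 87.8% to 95.3% of every Gβ bar, while the Gγ bars pass from mostly Gng10 in WT to mostly Gng12 in GαqKO.

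Per kilobase of exon, the Gβ levels in WT were 663.2 ± 6.8 normalized counts for Gnb1, 18.6 ± 1.4 for Gnb4 and 17.1 ± 4.2 for Gnb5 (SD, n = 3 each), and the last 2 were not separated. In GαqKO they were 370.8 ± 9.7, 30.8 ± 1.4 and 18.7 ± 2.6, with Gnb4 above Gnb5 in each library. The lengths used for Gnb4 and Gnb5 include exon bases inside other genes, so their order is uncertain. The Gγ levels in WT were 331.9 ± 29.1 for Gng10, 219.6 ± 6.2 for Gng12, 26.3 ± 1.1 for Gng7, 23.7 ± 2.4 for Gng5, 5.91 ± 4.0 for Gng11 and 4.71 ± 2.4 for Gng2 (SD, n = 3 each). Here the ranges of Gng7 and Gng5 overlapped, as did those of Gng11 and Gng2. Among the members in GαqKO, Gng12 led with 329.5 ± 8.9, followed by Gng10 with 148.7 ± 13.4 and Gng7 with 34.7 ± 3.8. Gng5 had 25.9 ± 1.7 and Gng2 had 7.92 ± 2.5 (SD, n = 3 each), and the ranges of all these were separate.

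Ratios between relatives inside a library do not depend on how that library was scaled. The log2 ratio of Gnb4 to Gnb1 was higher by 1.57 in GαqKO, and that of Gnb5 to Gnb1 by 0.98. Relative to Gng5, Gng10 was lower by 1.29 and Gng12 higher by 0.46 on the log2 scale. Both groups were separate in each of these ratios, with p = 0.1 in an exact permutation test (two-sided), the smallest that 3 against 3 libraries allow, and 0.133 after adjustment over the 8 ratios tested. Since the level of Gng5 is uncertain, Gng10 was also set against Gng12, a choice made after the values were seen, and that log2 ratio went from -0.21 ± 0.13 in WT to -1.95 ± 0.15 in GαqKO (SD, n = 3 each).

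The neighbourhood of each gene was then examined, because blocks of genes moved together on some chromosomes. Around Gng10, the 19 other genes tested within 2 Mb had a median log2 fold change of -1.34, and 14 of them were lower and 1 higher at an adjusted p under 0.05 in limma. The change of Gng10 thus lay within the quartiles of its neighbours (-1.72 to -0.58). Around Gnb4, 15 of 22 neighbours were higher and 2 lower, with a median of 0.69 beside the 0.73 of Gnb4 itself. Around Gng2, 26 of 30 were higher and 2 lower, with a median of 0.76. Gnb5 and Gng5, at 0.14 and 0.13, also lay within the quartiles of their neighbours (-0.12 to 2.36 and -0.93 to 0.54). Around Gng11, itself under the filter, 9 of 14 were lower and 2 higher, with a median of -0.73. The counts of neighbours here and below stand beside 31.8% of all genes tested called higher and 34.1% called lower. They were not tested against these shares.

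Gng12, Gng7 and Gnb1 lay outside the quartiles of their neighbours, Gng12 and Gnb1 in the direction that most of the called neighbours took. Gng12 changed by 0.59 where its 10 neighbours, 5 higher and 0 lower, had a median of 0.15 and quartiles of 0.04 and 0.32. Gng7 rose while 69 of its 118 neighbours were lower and 13 higher, with a median of -0.29. Gnb1 fell by 0.84 on the log2 scale. Its 58 neighbours, 34 lower and 6 higher, had a median of -0.30 and quartiles of -0.70 and -0.08. Chromosome 4, which carries Gnb1 and Gng10, had a median log2 fold change of -0.35 over its other 859 genes tested, and chromosome 3, which carries Gnb4 and Gng5, of 0.32 to 0.33 over 733. With the median of each chromosome removed, a setting chosen after seeing the data, the log2 fold changes were -0.48 for Gnb1, -0.80 for Gng10, 0.40 for Gnb4, 0.53 for Gng12 and 0.68 for Gng7, and all 5 kept an adjusted p under 0.05 (from 1.23e-07 to 0.000756, limma). This setting leaves in the shift within 2 Mb, where the medians were -1.34 around Gng10 and 0.69 around Gnb4. It therefore cannot set Gng10 or Gnb4 apart from their neighbours.

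**Figure D4:**
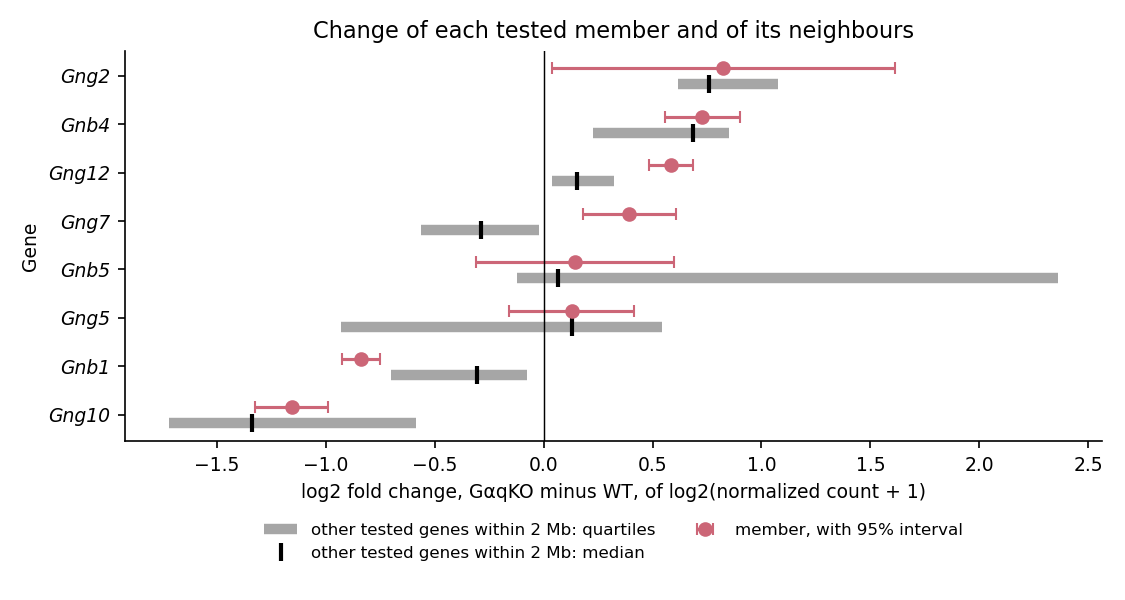
log2 fold change (GαqKO minus WT, of log2(normalized count + 1)) of the 8 tested members with 95% intervals, above the median and quartiles of the other tested genes that start within 2 Mb. Gng10, Gnb4, Gng2, Gnb5 and Gng5 lie inside the quartiles of their neighbours, and Gng12, Gng7 and Gnb1 lie outside them.

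Of the 8 other Gβ and Gγ genes of the mouse, 1 passed the filter. Gng8, a γ subunit best known from olfactory and vomeronasal sensory neurons, rose from 20.9, 29.1 and 23.4 to 251.7, 297.2 and 266.9 normalized counts, a log2 fold change of 3.43 (SE 0.169, limma adjusted p = 5.91e-10). Its level in GαqKO, 72.0 ± 6.1 normalized counts per kilobase of exon (SD, n = 3), was above that of Gng7. That order depends on the length used. Without length scaling, Gng8 had 271.9 ± 23.2 and Gng7 292.9 ± 31.8 normalized counts in GαqKO (SD, n = 3 each), with overlapping ranges. Gnb3, Gng4, Gng13, Gng14, Gngt1 and Gngt2 had at most 12.2 normalized counts in any library, and Gng3 was listed at 0 throughout. All exon bases of Gng3 and Gng14 lie inside other genes.

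Among the α subunits that Gβγ binds, 4 of 12 tested were higher and 3 lower, near the shares over all genes tested (31.8% and 34.1%). Gnai1, an inhibitory Gα, went from 866.5 ± 3.4 to 4.74 ± 1.8 normalized counts, whereas Gnao1 rose from 503.0 ± 56.5 to 2117 ± 25.1, Gnas from 2051 ± 95.5 to 4813 ± 435 and Gna14 from 3.11 ± 3.1 to 53.3 ± 6.1 (SD, n = 3 each). Gnai1 passed the filter through its WT values alone, and Gna14 through its GαqKO values alone.

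Of 24 genes listed as targets of Gβγ, 15 were tested, and 7 of these were lower and 3 higher, with a median log2 fold change of -0.20 beside -0.01 over all genes tested. Taking both directions, the number called is close to the 65.8% of all genes tested. The largest changes were in opposite directions. Prex2, a Rac exchange factor opened by Gβγ, had 822.8, 883.0 and 944.6 normalized counts in WT and 6.6, 3.5 and 3.0 in GαqKO, a log2 fold change of -7.42 (limma adjusted p = 4.83e-12). Plcb1, a phospholipase C β isoform that both Gαq and Gβγ can stimulate, had 6.3, 1.0 and 5.1 in WT and 191.6, 196.6 and 141.0 in GαqKO, a log2 fold change of 5.31 (limma adjusted p = 6.92e-08). Prex2 passed the filter through its WT values alone, and Plcb1 through its GαqKO values alone. Of the exon bases of Plcb1, 63.3% lie inside other genes.

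Smaller changes were seen in the other 3 targets that changed by more than 1 on the log2 scale. Of all genes tested, 20.7% passed that size at an adjusted p under 0.05. Radil, a Rap effector that binds Gβγ, rose by 1.18 (limma adjusted p = 0.000246). Pik3r5, the p101 subunit through which Gβγ reaches phosphoinositide 3-kinase γ, fell by 1.06 on the log2 scale (limma adjusted p = 0.000319), while the catalytic gene of that kinase, Pik3cg, had at most 1.2 normalized counts. Cacna1b, a neuronal calcium channel that Gβγ inhibits, was low and fell by 2.09 on the log2 scale (limma adjusted p = 0.000776). Its GαqKO values were 2.8, 2.3 and 6.0 normalized counts, so it passed the filter through WT alone. The Gβγ-gated potassium channel genes Kcnj3, Kcnj5, Kcnj6 and Kcnj9 had at most 13.9 normalized counts in any library.

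The genes that fold the dimer and attach its lipid all passed the filter. None of the 16 changed by more than 1 on the log2 scale, where 20.7% of all genes tested did so at an adjusted p under 0.05. In this list 5 were higher, 5 lower and 6 not called, with a median log2 fold change of 0.03. Of all genes tested, 31.8% were higher and 34.1% lower, so the number called is close to that of genes at large. Pdcl, the phosducin-like partner of the CCT chaperonin in Gβγ assembly, went from 856.6 ± 39.4 to 697.3 ± 57.2 normalized counts (SD, n = 3 each; log2 fold change -0.30, limma adjusted p = 0.0016). Fnta, the α chain shared by the enzymes that attach farnesyl and the longer prenyl lipid, rose by 0.31 (limma adjusted p = 0.00103). Of the other prenylation genes listed, Icmt was lower (log2 fold change -0.21, limma adjusted p = 0.00136), and Fntb, Pggt1b and Rce1 were not called. Among the Gβγ-binding regulators, 1 of 7 tested was higher and 1 lower, where 65.8% of all genes tested were called in either direction. The lower one was Kctd5, an adaptor through which a CUL3 ubiquitin ligase acts on Gβγ, with 1449 ± 59.9 and 962.7 ± 34.6 normalized counts (SD, n = 3 each; log2 fold change -0.59, limma adjusted p = 2.88e-07). The higher one was Kctd2, with 508.7 ± 22.9 and 633.1 ± 37.0 (SD, n = 3 each; log2 fold change 0.31, limma adjusted p = 0.000996). Kctd17 and Cul3 were not called. Grk2, the receptor kinase that Gβγ recruits to the membrane, had a difference of 0.09 on the log2 scale (limma adjusted p = 0.11). Pdcl, Fnta and the other prenylation genes named, the Kctd genes, Cul3, Grk2, Rgs9bp, Pik3cg, the Kcnj genes and the neighbours Mfn1, Dnajc25 and Gigyf1 were chosen after their values were seen.

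**Figure D5:**
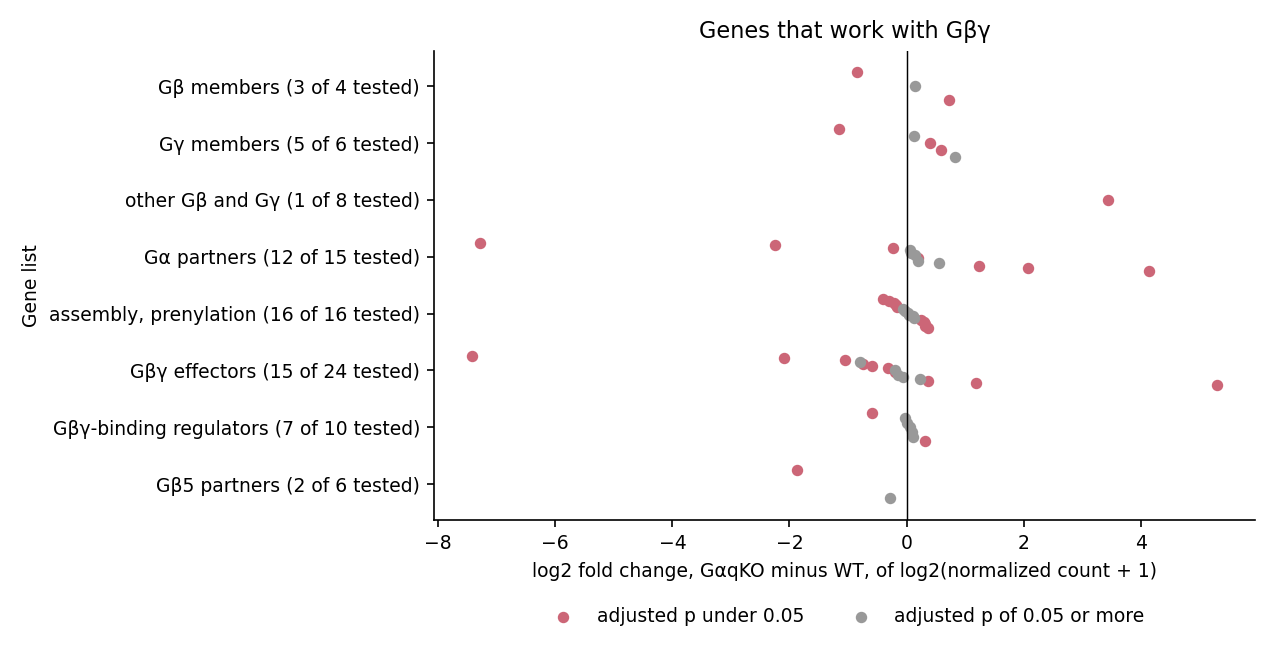
log2 fold change (GαqKO minus WT, of log2(normalized count + 1)) of each tested gene in the lists of Gβγ members, partners, assembly factors, targets and regulators; red points have an adjusted p under 0.05 in limma. The assembly and prenylation genes lie between -1 and 1, while Prex2 at -7.42 and Plcb1 at 5.31 mark the ends of the target list.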

How the data were processed

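Stranded, poly-A selected mRNA libraries from MEFs (3 WT, 3 GαqKO by the labels) had been sequenced as paired reads of 150 bases. The authors used Rbowtie2 for alignment (GRCm39), featureCounts of Rsubread for counting on GENCODE release M32, and DESeq2. What was deposited is a normalized signal: the count of each gene over the size factor of its library. Tool versions and the strand setting are not given in the sources used here. Symbols, positions and overlaps were taken from GENCODE release M39, also on GRCm39, where 56310 of 56953 identifiers (98.9%) were found.

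Values were fitted as log2(normalized count + 1) with limma 3.58.1 (R 4.3.3), using an intensity trend for the prior variance; p-values were Benjamini-Hochberg adjusted over 14096 genes that reached 10 normalized counts in 3 or more libraries. Fold changes on this scale understate the change of low genes. The filter can be met by the values of the higher group alone, as for Rgs9, Cacna1b, Prex2, Plcb1, Gnai1 and Gna14. Whole reads were recovered in 5 libraries, where 100.0% of nonzero values were within 0.1 reads of a whole number, and edgeR 4.0.16 and DESeq2 1.42.0 were run on them as alternatives. Reads of GαqKO replicate 3 were not used. Pairs of replicates differed from each other with a chi-square of 2.44 to 5.50 per gene, more than counting noise gives, so no libraries were merged. The fits were tested on simulated data. Other alternatives covered the pseudocount, the filter, TMM scaling, the prior spread, a replicate block, chromosome medians, exon length and each library left out. Named genes were all members, all other Gβ and Gγ genes, Gnaq, Gna11 and up to 5 genes per list that changed by more than 1 on the log2 scale. The members and lists were chosen with earlier results of these data known. Python 3.11.15 with pandas 2.3.3 and matplotlib 3.10.9 was used for annotation and plots.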

Additional observations from a re-analysis of the deposited data

How the results depend on the processing

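The changes of Gnb1, Gnb4, Gng7, Gng10 and Gng12 kept their direction and an adjusted p under 0.05 in all 17 alternatives (16 distinct fits, since limma on the 5 libraries with recovered reads is the fit without GαqKO replicate 3), with log2 fold changes from -0.86 to -0.48, 0.40 to 0.79, 0.31 to 0.68, -1.22 to -0.80 and 0.53 to 0.61. None of the alternatives removes the change shared by neighbouring genes within 2 Mb. The call of Gng2 depended on the setting, with an adjusted p of 0.0254 when 10 normalized counts were required in every library (log2 fold change 0.83) and 0.0405 with a pseudocount of 5 (0.73), both from limma; over the libraries left out in turn its log2 fold change ran from 0.37 to 1.16. The log2 fold change of Gnb5 was -0.062 without WT replicate 2 and ran from -0.06 to 0.29 over the libraries left out, and Gng5 turned to -0.20 with the median of each chromosome removed. The number of members that changed by more than 1 on the log2 scale was 0 higher and 1 lower, with 0 lower when chromosome medians were removed, 2 lower without the filter, where Gng11 entered, and from 0 to 1 higher over the libraries left out. Over all genes, 1432 rose and 1486 fell by more than that, and 831 and 765 when 10 normalized counts were required in every library, which tests fewer genes. The cause was not tested where none is named.

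Without length scaling, the change in share (GαqKO minus WT, in percentage points) was -8.96 for Gnb1, 8.17 for Gnb4, 0.772 for Gnb5, -23.0 for Gng10, -0.189 for Gng11, 20.3 for Gng12 and 0.194 for Gng5, against -6.69, 4.67, 1.98, -27.0, -0.945, 24.3 and 0.869 with it. With the canonical transcript it was -4.72 for Gnb1, 3.36 for Gnb4, 1.34 for Gnb5, 20.7 for Gng12, 1.31 for Gng5 and 5.39 for Gng7 (2.03 with all exons).

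Same-numbered libraries did not deviate together (correlations of their deviations from the group means of -0.05, -0.15 and -0.06 over genes). With 3 libraries per group this gave no sign of a pairing by number but cannot exclude one, and the labels do not say. With the replicate block, 3 members were higher and 2 lower, as without it, and Gng7 had an adjusted p of 0.00837 (limma). Depth limits Gng11, and the overlap with other genes limits Gnb2, Gnb4, Gnb5 and Gng5.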
